A study of Sus scrofa with 23 samples.

Results

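Transcript levels at 28 days post natum (dpn) were compared with those at 1 dpn, the span in which piglets suckle, in the 12 arrays of these 2 ages out of 23 in the series. Each age had 6 samples, and the arrays of 94 days post conception (dpc, 5 samples) and 188 dpn (6 samples) entered the fit to estimate the spread of each probe set. The mothers of all animals, at 28 dpn as at 1 dpn, were German Landrace gilts on a low protein diet during gestation, so that no diet can be compared here. The design names 3 gilts per age as dams without giving the dam of a sample. Some animals of an age therefore shared a dam, and the p-values, which treat the 6 animals as independent, may be too small. The sample labels give liver as the tissue, whereas the title of the series speaks of muscle.

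The transcript of muscle creatine kinase (CKM), a defining enzyme of skeletal muscle, had signals of 54155 to 93811 at 28 dpn and 39852 to 87002 at 1 dpn. Albumin (ALB), the main protein that hepatocytes secrete, had signals of 34.5 to 6400 at 28 dpn and 81.8 to 2909 at 1 dpn, with medians of 164 and 1129. The median signal of all probe sets lay between 120.8 and 168.8 on every array. The samples are called by their age below, and no result is assigned to a tissue.

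Skeletal muscle of the newborn pig is immature. In the weeks after birth its fibres take up adult myosin isoforms, build the membrane system that releases calcium, and enlarge the enzyme sets for creatine phosphate, glycolysis and glycogen. Fuel changes too: the newborn goes over to the fat and lactose of colostrum and milk within hours of birth, and it shivers to keep warm because pigs have no working brown fat. Its immune system meets microbes for the first time, and interferon-stimulated, antigen-presenting and macrophage genes are the usual transcripts by which this is seen in a tissue. In a whole-tissue sample, more cells of a type and more RNA per cell cannot be told apart.

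The 5′ to 3′ signal ratio of the first pair of GAPDH control probe sets was 1.10 to 1.29 at 28 dpn. At 1 dpn it was 0.0868 to 0.148 in 3 of the 6 arrays (replicates 2, 4 and 5) and 1.09 to 1.13 in the other 3. Such a ratio falls when labelled copies reach less far from the 3′ end of a transcript. The EF1A control ratio set the same 3 arrays apart, with 0.532 to 0.706 at 28 dpn, 0.101 to 0.1245 in those 3 and 0.759 to 0.824 in the other 3 of 1 dpn. Of the 2 actin pairs, the second set them apart too, with 0.0822 to 0.128 at 28 dpn, 0.0319 to 0.0451 in those 3 and 0.0900 to 0.135 in the other 3 of 1 dpn. The ratio of the first actin pair separated the ages, with 1.32 to 1.61 at 28 dpn and 0.817 to 1.21 at 1 dpn, and its part in the results was not tested. The second GAPDH pair gave 0.273 to 0.522 in the same 3 arrays and 0.841 to 0.918 in the others of 1 dpn. All 28 dpn arrays lay between, with 0.664 to 0.732. For the dap spike-in control the ratio was 0.049 to 0.063 in those 3 and 0.1795 to 0.354 in the others. The 28 dpn arrays again lay between, with 0.070 to 0.104. Leaving out those 3 therefore does not match the ages on these 2 ratios, whose part in the results was not tested. Arrays of 28 dpn were more alike (median pairwise correlation 0.936) than those of 1 dpn (0.905). The 3 arrays are called the low-ratio arrays below, and list counts that change without them are given both ways. Leaving them out cuts 1 dpn from 6 arrays to 3, so a call can then be lost with little change in its size.

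Of 23999 probe sets, 2435 were higher at 28 dpn (10.1%) and 1686 lower (7.03%), together 17.2% of those tested (limma, adjusted p under 0.05), and 1359 and 772 of these differed at least 2-fold. The split depended on the scaling, with 1974 higher and 2041 lower once each array was centred on its median. By gene, each taken from its brightest probe set, 910 of 6765 were higher (13.5%) and 719 lower (10.6%), together 24.1%, and the median log2 change of all genes was 0.025. Without the low-ratio arrays, 1990 probe sets were higher (8.29%) and 1227 lower (5.11%), together 13.4%. By gene, 706 were then higher (10.4%) and 614 lower (9.08%), together 19.5%. Of these genes, 553 and 389 were among those called with all arrays, and every one of the 1629 genes called with all arrays kept its sign. The median log2 change was smaller without these arrays, at 0.89 against 1.01 for the genes called higher and -0.74 against -0.85 for those called lower. Gene lists are set beside these shares, since a list near 13.5% higher or 10.6% lower does not stand apart from all genes.

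**Figure D1:**
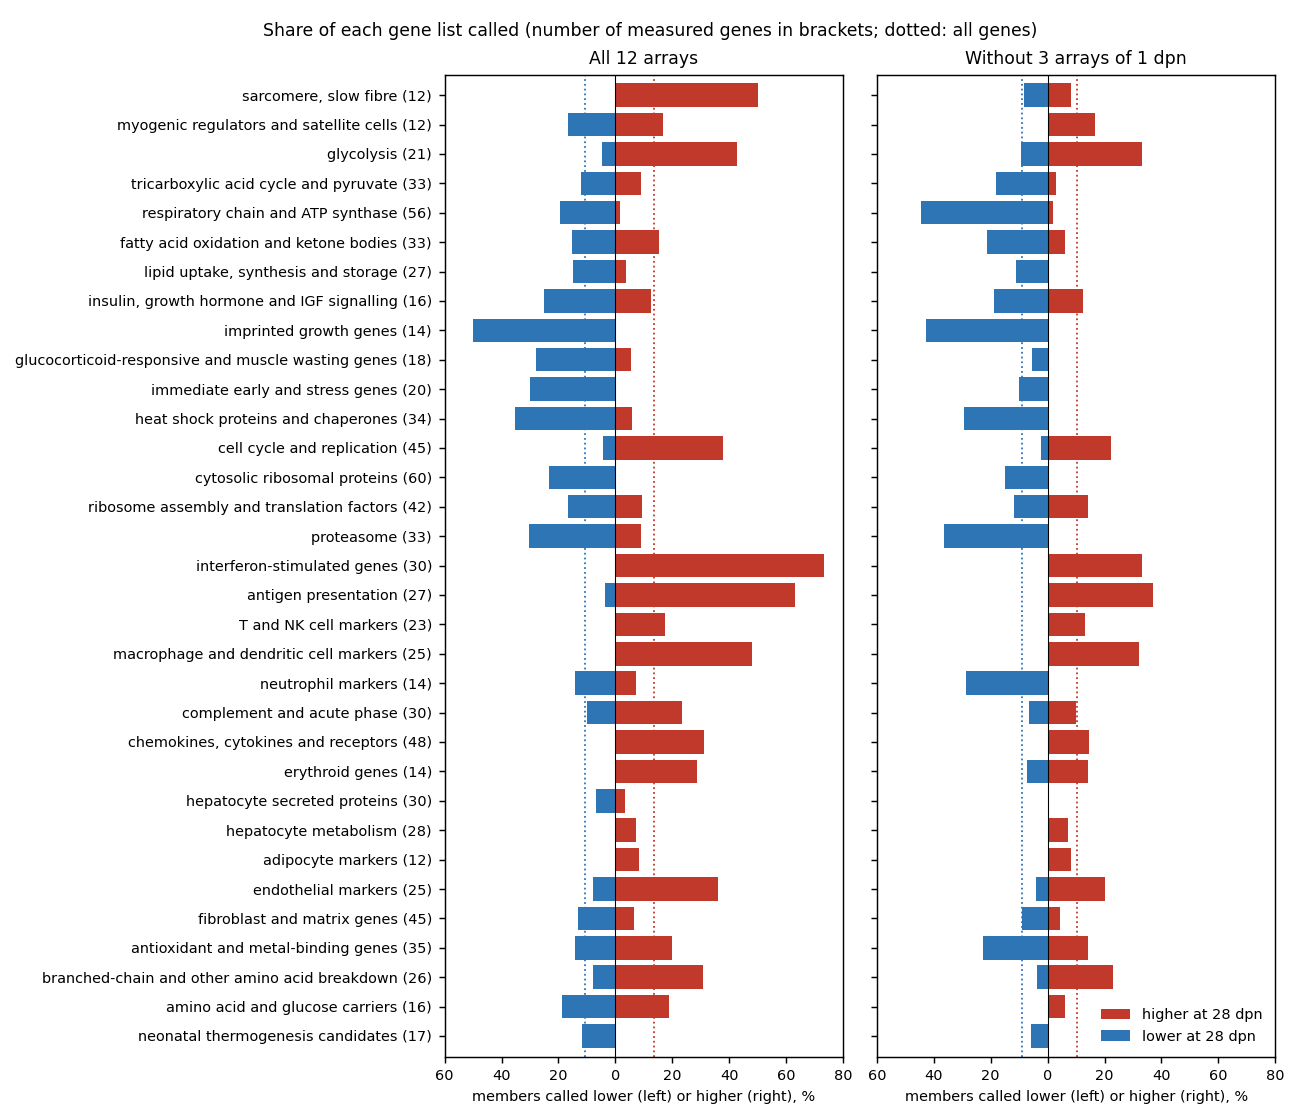
Share of measured members called higher (red, right of 0) or lower (blue, left of 0) at 28 dpn for the lists with at least 12 measured genes, in % of members, with all 12 arrays (left panel) and without the 3 low-ratio arrays of 1 dpn (right panel). Dotted lines mark the shares over all 6765 genes. The interferon-stimulated list goes from 22 to 10 of 30 members called higher when those arrays are left out, and the respiratory chain list from 11 to 25 of 56 called lower.

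In the fast and slow fibre lists of the sarcomere no gene fell with all arrays, and 1 gene of each rose with and without the low-ratio arrays. MYH2, the myosin heavy chain of fast IIa fibres, had a lowest, median and highest signal of 58689, 73159 and 103288 at 28 dpn, against 4305, 5797 and 12416 at 1 dpn. The 2 ages did not overlap, as was so for 10.4% of all genes (5.96% higher and 4.42% lower at 28 dpn), and the highest value of 1 dpn was that of replicate 1. MYH2 rose 12.0-fold (adjusted p = 3.7e-08). Folds here are differences of mean log2(signal + 16) turned back to ratios. Myosin heavy chain genes are alike in sequence, and whether this probe set also binds MYH1 or MYH4 was not tested. No probe set was assigned to MYH1, MYH3, MYH4 or MYH8 alone, so these isoforms are not compared here.

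Of 9 measured genes of the adult fast fibre sarcomere, 4 rose and 5 did not pass, with a median log2 change of 0.26. Only MYH2 of these 4 passed without the low-ratio arrays, and the other 3, with log2 changes of 0.46 to 0.81, already lost their calls without 28 dpn replicate 2, 1 dpn replicate 2 or 1 dpn replicate 4. Of 12 slow fibre genes, 6 rose and 6 did not pass (median 0.54), and without the low-ratio arrays 1 rose, 1 fell and 10 did not pass. The gene that rose in both was PLN, which encodes phospholamban, the brake on the calcium pump of slow and cardiac muscle. Its signals were 953, 1849 and 2926 (lowest, median and highest) at 28 dpn, against 384, 765 and 828 at 1 dpn, and it rose 2.51-fold (adjusted p = 0.0027).

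The other slow fibre genes named here lost their calls without the low-ratio arrays. MYBPC1, slow myosin binding protein C, rose 2.74-fold with all arrays, yet its 26954 to 38016 at 28 dpn overlapped the 4057 to 38450 of 1 dpn. In the low-ratio arrays it lay at 4057 to 8612, and without them its log2 change was 0.48 (adjusted p = 0.18) in place of 1.45. Without those arrays, the slow troponin TNNC1, 1.80-fold higher with all, had a log2 change of 0.47 (adjusted p = 0.077). TNNT1, 1.63-fold higher with all, then had one of 0.53 (adjusted p = 0.074). MYH7, the slow myosin heavy chain, had signals of 44637 to 69383 at 28 dpn and 27106 to 55608 at 1 dpn and did not pass (log2 change 0.48, adjusted p = 0.087), although it did without 1 dpn replicate 1 (adjusted p = 0.032).

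Parts of the sarcomere scaffold rose whichever arrays were used. MYOM1, myomesin of the M band, had 14178, 18057 and 21606 at 28 dpn, against 4274, 6198 and 9798 at 1 dpn, and rose 2.76-fold (adjusted p = 1.1e-05, and 2.89-fold without the low-ratio arrays). NEB, nebulin of the thin filament, had 35868, 40631 and 51816 at 28 dpn, against 17323, 23243 and 32222 at 1 dpn, and rose 1.84-fold (adjusted p = 0.00097). For both genes the lowest sample of 28 dpn exceeded the highest of 1 dpn.

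The list of embryonic and neonatal contractile genes had 4 of 9 higher, 2 lower and 3 that did not pass, and 2 higher and 1 lower without the low-ratio arrays. MYOM1 and NEB, described above as parts of the scaffold, belong to this list and were the 2 that rose without the low-ratio arrays. The rise of the list without those arrays thus rests on scaffold genes. Its other members include ANKRD1, a stretch-responsive repeat protein bound to titin, which fell 4.72-fold, with 720, 2004 and 3096 at 28 dpn, against 4034, 8560 and 12621 at 1 dpn (adjusted p = 0.00031). ACTC1, the cardiac actin that developing muscle also makes, fell 1.69-fold (17319 to 54059 at 28 dpn, against 40231 to 68668 at 1 dpn, adjusted p = 0.025). It missed the threshold without the low-ratio arrays (log2 change -0.70 in place of -0.76, adjusted p = 0.13) or without 28 dpn replicate 3 or 5 (adjusted p = 0.066 and 0.072). Cardiac troponin T (TNNT2) was dim at both ages, with 35.6 to 551 at 28 dpn and 5.16 to 174 at 1 dpn. Its 4.60-fold rise became a log2 change of 1.24 without the low-ratio arrays (adjusted p = 0.25).

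Of 6 measured genes of calcium release and excitation, 2 rose and 4 did not pass, and without the low-ratio arrays 1 rose and 1 fell. RYR1, the calcium release channel of the sarcoplasmic reticulum, had 17102, 19367 and 23744 at 28 dpn, against 4001, 5491 and 9891 at 1 dpn, and rose 3.41-fold (adjusted p = 9.2e-07). The groups were far apart, with every 28 dpn sample above every 1 dpn sample. The calcium pump genes ATP2A1 (fast fibres) and ATP2A2 (slow fibres) did not pass by their brightest probe sets, with log2 changes of 0.14 and 0.16. Dimmer probe sets disagreed: that of ATP2A1 was higher (log2 change 1.26, adjusted p = 0.0012), and of 3 for ATP2A2 1 was higher (1.42), 1 lower (-1.10) and 1 did not pass. CASQ2, the calsequestrin of slow and cardiac muscle, did not pass with all arrays (log2 change -1.13, adjusted p = 0.14) and fell without the low-ratio arrays (-2.17, adjusted p = 0.0087).

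Called genes of the creatine and adenylate energy buffer rose with all arrays and no scaling. Of 9 measured, 3 rose and 6 did not pass, and the same 3 rose without the low-ratio arrays. After centring or quantile normalization 3 rose and 1 fell, and at most 1 fell when single arrays were left out. GAMT, the enzyme of the last step of creatine synthesis, had 3049, 5427 and 6780 at 28 dpn, against 7.99, 231 and 1413 at 1 dpn. It rose 24.3-fold (adjusted p = 5.2e-06), a size that leaned on dim 1 dpn arrays: it was 15.8-fold without 1 dpn replicate 2, the lowest sample, and 9.58-fold without the low-ratio arrays. CKM, whose enzyme uses the product, did not pass (log2 change 0.30, adjusted p = 0.29).

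The purine nucleotide cycle regenerates AMP from IMP in working fibres, and 2 of its enzymes rose. AMPD1, the muscle AMP deaminase, had 26790, 32659 and 38540 at 28 dpn, against 3031, 6103 and 18999 at 1 dpn, and rose 4.66-fold (adjusted p = 9.5e-05, and 4.67-fold without the low-ratio arrays). ADSSL1, the muscle adenylosuccinate synthase, had 23446, 27301 and 38849 at 28 dpn, against 2022, 3387 and 9707 at 1 dpn, and rose 7.71-fold (adjusted p = 2.4e-07). Replicate 1 was the highest 1 dpn sample of both genes, and neither gene's samples overlapped between the ages.

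**Figure D2:**
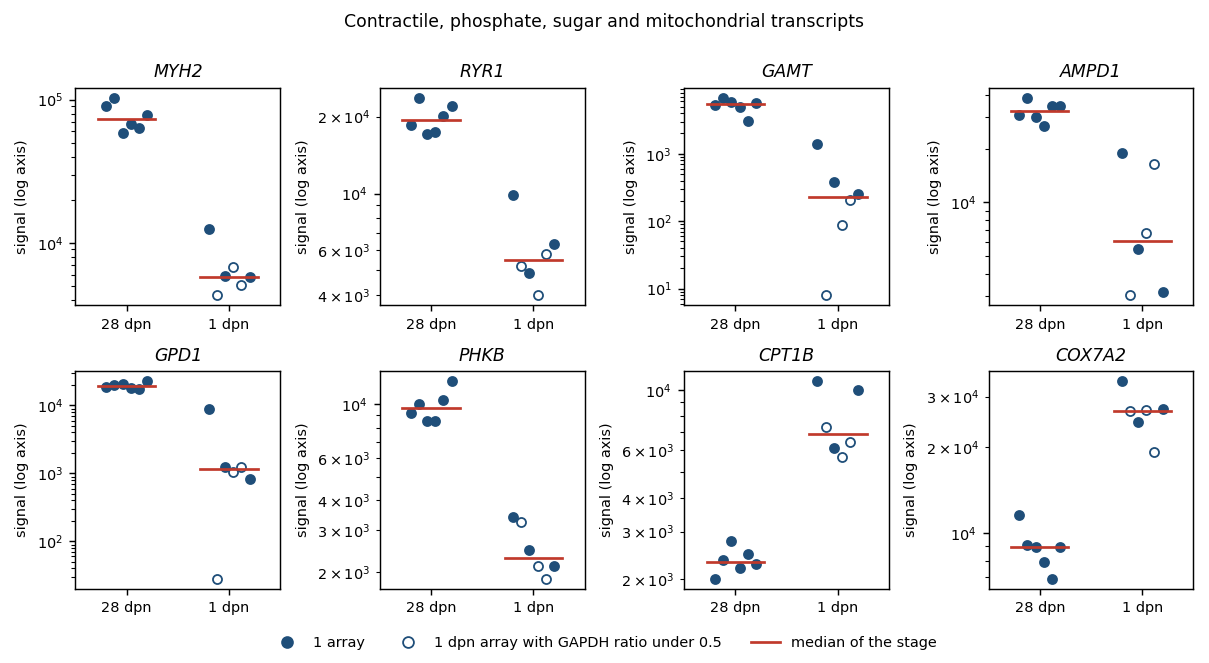
Signals (log axis) of 8 transcripts in each array of 28 dpn (left) and 1 dpn (right), with the median of each age as a red line and the 3 low-ratio arrays of 1 dpn as open circles. MYH2, RYR1, GAMT, AMPD1, GPD1 and PHKB are higher at 28 dpn, and CPT1B and COX7A2 lower. The samples of the 2 ages do not overlap for any of the 8 genes, as was so for 10.4% of all genes. These 8 were picked after their values were seen, so their lack of overlap is no separate result.

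Glycolysis leaned toward higher levels at 28 dpn. Of 21 genes, 9 rose (42.9%), 1 fell and 11 did not pass (median 0.50), and without the low-ratio arrays 7 rose and 2 fell. GPD1, the glycerol phosphate dehydrogenase that links glycolysis to the mitochondrial shuttle and to lipid, had 17594, 19437 and 22677 at 28 dpn, against 28.2, 1146 and 8887 at 1 dpn. The rise was 21.5-fold (adjusted p = 8.1e-05), 33.9-fold without 1 dpn replicate 1, 11.7-fold without 1 dpn replicate 2 and 9.18-fold without the low-ratio arrays. Its 28 dpn samples lay close together and its 1 dpn samples were spread widely, yet the 2 did not overlap.

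Among enzymes of the pathway itself, GPI, the isomerase of glucose 6-phosphate, had 34794, 38235 and 46176 at 28 dpn, against 6280, 8767 and 23024 at 1 dpn, and rose 4.09-fold (adjusted p = 1.7e-06). LDHA, the lactate dehydrogenase subunit of fast muscle, had 56277, 70244 and 90079 at 28 dpn, against 2915, 18029 and 60610 at 1 dpn, and rose 4.44-fold (adjusted p = 0.0009). The ages overlapped for LDHA through 1 dpn replicate 1 alone. BPGM, which makes 2,3-bisphosphoglycerate, had 2225 to 3115 at 28 dpn and 150 to 693 at 1 dpn, and rose 8.18-fold (adjusted p = 3.7e-08).

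GAPDH, whose control probe sets set the 3 arrays apart, did not pass by its brightest probe set (45553 to 79664 at 28 dpn, 50241 to 83915 at 1 dpn, log2 change -0.15, adjusted p = 0.61). Of its 4 other probe sets, 2 did not pass either, the brighter of them with a log2 change of -0.12 (adjusted p = 0.68). The remaining 2 were higher at 28 dpn, by 2.65 (adjusted p = 9.6e-06) and by 1.68 on the log2 scale (adjusted p = 0.00025), and still so without the low-ratio arrays, at 2.20 and 1.06. The probe sets of this gene thus gave different answers, and the mean over them was higher (log2 change 0.78, adjusted p = 0.0024).

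Glycogen genes rose on a larger share than all genes, 6 of 11 (54.5%), with 5 that did not pass and a median of 0.61. Of these, 4 rose without the low-ratio arrays as well. STBD1, which anchors glycogen to membranes, had 7272, 8681 and 9866 at 28 dpn, against 343, 829 and 2859 at 1 dpn, and rose 10.1-fold (adjusted p = 1.9e-07, 6.75-fold without the low-ratio arrays). PHKB, the beta subunit of phosphorylase kinase, had 8518, 9644 and 12492 at 28 dpn, against 1883, 2303 and 3401 at 1 dpn, and rose 3.93-fold (adjusted p = 3.7e-08). The 2 age groups stood clearly apart for both.

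PGM1, phosphoglucomutase, had 44851, 58158 and 73909 at 28 dpn, against 6287, 10347 and 33922 at 1 dpn, and rose 4.89-fold (adjusted p = 2.6e-06). GYG1, the glycogenin that primes glycogen, had 12076, 13800 and 15644 at 28 dpn, against 2825, 6762 and 9776 at 1 dpn, and rose 2.32-fold (adjusted p = 0.00054). PYGM, muscle glycogen phosphorylase, rose 1.81-fold with overlapping samples (39569 to 68958 at 28 dpn, 15247 to 56771 at 1 dpn, adjusted p = 0.02) and missed the threshold without 1 dpn replicate 2 (adjusted p = 0.052) or the low-ratio arrays (adjusted p = 0.052). Its 3 other probe sets rose, with log2 changes of 1.81, 2.87 and 3.58, and did so without the low-ratio arrays too (1.22, 2.11 and 2.77, adjusted p = 0.006 at most).

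The mitochondrial lists leaned the other way. Of 56 respiratory chain and ATP synthase genes, 11 fell (19.6%), 1 rose and 44 did not pass, with a median of -0.24. Without the low-ratio arrays 25 fell, 1 rose and 30 did not pass, and the median was -0.55. The count also hung on single arrays, with 7 lower without 28 dpn replicate 3, 6 without 28 dpn replicate 4, 7 without 1 dpn replicate 1 and 17 without 1 dpn replicate 2, and it was 17 after centring and 5 with the 2 ages fitted alone.

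COX7A2, a small subunit of cytochrome c oxidase made outside heart and muscle as well, had 6906, 8891 and 11572 at 28 dpn, against 19246, 26787 and 33966 at 1 dpn, and fell 2.97-fold (adjusted p = 7.8e-07). NDUFC2, of complex I, had 7015, 9175 and 10736 at 28 dpn, against 10810, 18063 and 24608 at 1 dpn, and fell 1.90-fold (adjusted p = 0.001). ATP5I, a small subunit of ATP synthase, had 669, 2433 and 5074 at 28 dpn, against 11944, 15420 and 19455 at 1 dpn, and fell 7.08-fold (adjusted p = 0.00062). All 3 were without overlap, and a second, dim probe set of ATP5I did not pass (log2 change 0.46, adjusted p = 0.33).

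Among genes of the tricarboxylic acid cycle and pyruvate, 3 of 33 were higher, 4 lower and 26 did not pass, shares near those of all genes, with a median of 0.01. Without 1 dpn replicate 1 the number that rose was 7. Without the low-ratio arrays the list leaned lower: 1 rose (3.03%) and 6 fell (18.2%), against 10.4% and 9.08% of all genes. MPC2, of the carrier that brings pyruvate into mitochondria, fell 2.40-fold (11371, 14414 and 14979 at 28 dpn, against 25701, 31306 and 44102 at 1 dpn, adjusted p = 5.2e-05). IDH3B, of the NAD-dependent isocitrate dehydrogenase, fell 2.64-fold (1305 to 1803 at 28 dpn, 2402 to 5282 at 1 dpn), and ME3, the mitochondrial malic enzyme, fell 2.33-fold (470 to 665 against 818 to 2234). SUCLA2, of succinyl-CoA ligase, rose 2.49-fold (5360 to 6880 at 28 dpn, 1767 to 5305 at 1 dpn, adjusted p = 0.00015).

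The oxidation of fatty acids and ketone bodies split evenly with all arrays, with 5 of 33 higher, 5 lower and 23 that did not pass (median -0.13). Without the low-ratio arrays it leaned lower, with 2 higher, 7 lower and 24 that did not pass (median -0.24). The share that fell was then 21.2%, against 9.08% of all genes. The 5 that fell did so without the low-ratio arrays too, while 2 of the 5 that rose were kept. The number that rose was 3 without 28 dpn replicate 1, 2 or 4 or 1 dpn replicate 4 or 5. Among the 5 that fell were CPT1B, ACADVL and HADHA.

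CPT1B, the muscle carnitine palmitoyltransferase that gates entry, had 2009, 2311 and 2758 at 28 dpn, against 5669, 6888 and 10779 at 1 dpn, and fell 3.20-fold (adjusted p = 3.5e-06). ACADVL, the dehydrogenase for very long chains, had 5456, 6775 and 7817 at 28 dpn, against 15615, 19423 and 27326 at 1 dpn, and fell 2.99-fold (adjusted p = 1.3e-05). HADHA, of the trifunctional protein, had 4852, 6102 and 7081 at 28 dpn, against 10137, 12326 and 15356 at 1 dpn, and fell 2.08-fold (adjusted p = 0.00016). For CPT1B, ACADVL and HADHA the highest 28 dpn sample lay below the lowest 1 dpn sample.

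OXCT1, which activates ketone bodies for oxidation, moved the opposite way, with 333, 746 and 821 at 28 dpn, against 100, 182 and 255 at 1 dpn, and rose 3.49-fold (adjusted p = 5.4e-05). A second OXCT1 probe set rose as well (log2 change 1.27, adjusted p = 0.0094). PDK4, the kinase that holds back pyruvate oxidation in fasting, had 2597 to 12195 at 28 dpn and 6699 to 23936 at 1 dpn and did not pass (log2 change -0.86, adjusted p = 0.17).

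Of 27 genes of lipid uptake, synthesis and storage, 1 rose, 4 fell and 22 did not pass (median -0.17), with 2 that fell without 28 dpn replicate 6 and 2 that rose without 1 dpn replicate 1. The number that fell was 3, with 24 that did not pass, without the low-ratio arrays. PNPLA2, the lipase that opens triglyceride breakdown, fell 2.25-fold (4910 to 11784 at 28 dpn, 11288 to 25726 at 1 dpn, adjusted p = 0.00051). Cholesterol genes had 1 of 10 higher and 9 that did not pass (1 higher and 1 lower without the low-ratio arrays), and the number was 2 to 3 without 28 dpn replicate 5 or 1 dpn replicate 1, 3 or 5. The gene was FDFT1, squalene synthase, with 2519, 2960 and 3985 at 28 dpn, against 732, 1302 and 1977 at 1 dpn, up 2.42-fold (adjusted p = 0.00022).

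Amino acid breakdown leaned higher, with 8 of 26 genes up (30.8%), 2 down and 16 that did not pass (median 0.30), and 6 up and 1 down without the low-ratio arrays. The 2 aminotransferases that start branched-chain breakdown went in opposite directions. BCAT1, the cytosolic form, had 21.5, 75.3 and 145 at 28 dpn, against 213, 304 and 479 at 1 dpn, and fell 3.75-fold (adjusted p = 0.00028, and a second probe set fell with a log2 change of -1.21). BCAT2, the mitochondrial form, had 435, 525 and 763 at 28 dpn, against 46.4, 206 and 381 at 1 dpn, and rose 3.06-fold (adjusted p = 0.0022). It missed the threshold without the low-ratio arrays (1.70-fold, adjusted p = 0.068).

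Downstream, BCKDHB, of the branched-chain keto acid dehydrogenase, had 749 to 1457 at 28 dpn and 180 to 655 at 1 dpn, and rose 3.01-fold (adjusted p = 0.00026). HIBCH, of valine breakdown, had 238 to 402 at 28 dpn and 45.8 to 375 at 1 dpn, and rose 2.81-fold (adjusted p = 0.0007). Of 16 amino acid and glucose carriers 3 rose, 3 fell and 10 did not pass, and without the low-ratio arrays 1 rose and 15 did not pass. Without 1 dpn replicate 2, 1 fell. SLC2A12, a glucose carrier of muscle and fat, rose 2.75-fold (208 to 398 at 28 dpn, 46.8 to 216 at 1 dpn, adjusted p = 0.00013). SLC16A3, the lactate exporter of glycolytic fibres, rose 3.64-fold with all arrays (2212 to 3980 at 28 dpn, 235 to 2361 at 1 dpn) and 1.71-fold without the low-ratio arrays, where it missed the threshold (adjusted p = 0.11).

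In the growth axis, 2 of 16 genes of insulin, growth hormone and IGF signalling rose, 4 fell and 10 did not pass (median -0.25). Leaving out the low-ratio arrays gave 2 higher and 3 lower. The 2 that rose with all arrays were the growth hormone receptor and IGF1. GHR had 254, 340 and 435 at 28 dpn, against 25.1, 134 and 175 at 1 dpn, and rose 3.03-fold (adjusted p = 0.0011). IGF1, the growth factor that growth hormone induces, had 200, 228 and 257 at 28 dpn, against 21.7, 65.6 and 154 at 1 dpn, and rose 2.94-fold (adjusted p = 0.0028), while its other 2 probe sets did not pass (log2 changes 0.80 and -0.29).

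Imprinted genes of fetal growth leaned lower, with 7 of 14 down (50.0%), 7 that did not pass and a median of -0.71, and 6 of 14 down without the low-ratio arrays. PEG10, a paternally expressed gene derived from a retrotransposon, had 192, 491 and 672 at 28 dpn, against 1560, 3812 and 7221 at 1 dpn, and fell 8.93-fold (adjusted p = 1e-06). Of its dimmer probe sets, 1 did not pass and the other was higher at 28 dpn (mean signals 67.5 and 5.20, log2 change 1.89, adjusted p = 0.00025). PLAGL1, a zinc finger regulator of other imprinted genes, had 210, 356 and 403 at 28 dpn, against 748, 2165 and 5129 at 1 dpn, and fell 6.39-fold (adjusted p = 1e-06).

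PHLDA2, a brake on placental growth, had 75.1 to 353 at 28 dpn and 305 to 1513 at 1 dpn and fell 3.97-fold (adjusted p = 0.0027). GNAS, the stimulatory G protein locus, had 16.4 to 62.6 at 28 dpn and 95.7 to 213 at 1 dpn and fell 2.63-fold (adjusted p = 0.0012). IGF2, the fetal growth factor, fell 2.14-fold, with 1427 to 5631 at 28 dpn and 3426 to 16076 at 1 dpn (adjusted p = 0.033). That call was fragile: leaving out any of replicates 1, 2, 5 and 6 of 28 dpn, or 3 and 6 of 1 dpn, ended it (adjusted p = 0.058 to 0.087), and the 12 other probe sets of the gene differed in direction. Of these, 2 were higher at 28 dpn (log2 changes 1.13 and 1.45), 1 was lower (-1.73, adjusted p = 0.0084, and -0.69 without the low-ratio arrays, adjusted p = 0.3) and 9 did not pass.

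Among secreted growth factors outside the lists, MDK (midkine), made in developing tissue, had 465, 910 and 1376 at 28 dpn, against 8.92, 36.0 and 238 at 1 dpn. It rose 14.8-fold (adjusted p = 9e-06). In the low-ratio arrays its signals were 8.92 to 15.5, and the rise without them was 6.67-fold. EGF had 2672, 3779 and 4603 at 28 dpn, against 102, 384 and 982 at 1 dpn, and rose 11.2-fold (adjusted p = 2.7e-07). Neither gene's samples overlapped, which for EGF was required by the rule that allowed it.

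Of 12 myogenic regulators and satellite cell genes, 2 rose, 2 fell and 8 did not pass, and the 2 falls were lost without the low-ratio arrays, 1 of them also without 28 dpn replicate 1, 4 or 5 or 1 dpn replicate 3 or 4. MSTN, myostatin, which limits muscle growth, had 91.3, 159 and 182 at 28 dpn, against 5.79, 33.3 and 84.2 at 1 dpn, and rose 3.48-fold (adjusted p = 0.0013, 5.39-fold without the low-ratio arrays). MEF2A, a transcription factor of differentiated fibres, had 1215 to 1648 at 28 dpn and 558 to 1014 at 1 dpn and rose 1.76-fold (adjusted p = 0.0015).

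**Figure D3:**
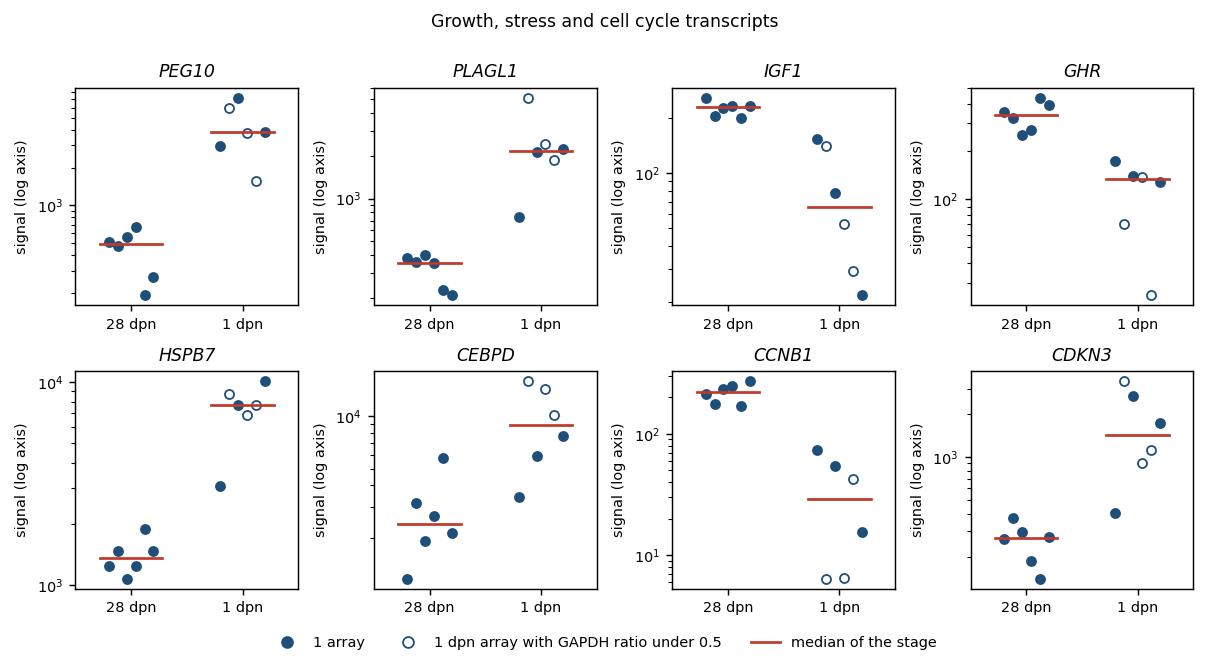
Signals (log axis) of 8 transcripts of growth, stress and the cell cycle in each array of 28 dpn (left) and 1 dpn (right), with the median of each age as a red line and low-ratio arrays as open circles. PEG10, PLAGL1, HSPB7 and CDKN3 are lower at 28 dpn without overlap, IGF1, GHR and CCNB1 higher without overlap, and CEBPD overlaps between the ages.

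Glucocorticoid-responsive and muscle wasting genes, which respond to the cortisol surge at birth and to fasting, had a median of -0.77, with 5 of 18 lower (27.8%), 1 higher and 12 that did not pass. Without the low-ratio arrays 1 fell (5.56%, against 9.08% of all genes) and 17 did not pass (median -0.40). Without 1 dpn replicate 1 the number that fell was 8. The gene that stayed lower was PER1, a clock gene with a glucocorticoid response, with 1788, 2265 and 2860 at 28 dpn, against 2937, 6115 and 13727 at 1 dpn, down 2.92-fold (adjusted p = 0.00061). CEBPD, a transcription factor of the acute stress response, fell 3.37-fold (1168 to 5752 at 28 dpn, 3433 to 15809 at 1 dpn), but 2.15-fold without the low-ratio arrays (adjusted p = 0.13).

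NR3C1, the glucocorticoid receptor, rose 4.66-fold with all arrays (122 to 378 at 28 dpn, 7.85 to 275 at 1 dpn) and missed the threshold without the low-ratio arrays (2.23-fold, adjusted p = 0.15), and its 3 other probe sets did not pass (log2 changes 0.36, -0.77 and -0.79). FKBP5, a co-chaperone of that receptor, did not pass (452 to 1141 at 28 dpn, 270 to 5867 at 1 dpn, log2 change -1.23, adjusted p = 0.066). It did without 1 dpn replicate 1, the lowest sample (adjusted p = 0.0012), and its log2 change was -0.43 without the low-ratio arrays. In the circadian clock list 1 of 6 rose, 1 fell (PER1) and 4 did not pass, and PER1 alone was called without the low-ratio arrays.

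With all arrays, immediate early and stress genes were lower in part, with 6 of 20 down (30.0%), 14 that did not pass and a median of -0.77. Without the low-ratio arrays 2 were down (10.0%), near the 9.08% of all genes, and the median was -0.34. The count of 6 fell to 1 to 3 without 28 dpn replicate 1, 2, 5 or 6 or 1 dpn replicate 2, 4 or 5. FOSL2, of the AP-1 family, kept its call without the low-ratio arrays and without each single array, with 11.4, 89.5 and 145 at 28 dpn, against 212, 378 and 1165 at 1 dpn, down 5.51-fold (adjusted p = 0.00025).

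Chaperones gave a steadier count, with 12 of 34 lower (35.3%), 2 higher and 20 that did not pass (median -0.29), and 10 lower and 24 that did not pass without the low-ratio arrays. Both rises were lost without 28 dpn replicate 2, 3 or 4 or 1 dpn replicate 1 or 4. HSPB7, a small heat shock protein of muscle and heart, had 1071, 1351 and 1881 at 28 dpn, against 3067, 7710 and 10086 at 1 dpn, and fell 5.01-fold (adjusted p = 5.6e-06). HSPB6, another small heat shock protein of muscle, had 2227 to 4149 at 28 dpn and 6195 to 12748 at 1 dpn and fell 3.17-fold (adjusted p = 3.8e-05). DNAJB6, a co-chaperone at the Z disc, had 1452 to 2151 at 28 dpn and 2057 to 14944 at 1 dpn and fell 2.67-fold (adjusted p = 0.0018), or 1.70-fold without the low-ratio arrays. HSP90AA1 did not pass by its brightest probe set (log2 change -0.25), whereas 1 of its 4 others fell (log2 change -1.85, adjusted p = 3.6e-06) and 3 did not pass.

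Of 17 candidate genes of neonatal thermogenesis and its hormonal control, 2 fell and 15 did not pass, and 1 fell without the low-ratio arrays. PNMT, which makes adrenaline from noradrenaline, had 8.10, 12.5 and 21.3 at 28 dpn, against 68.4, 238 and 933 at 1 dpn, and fell 8.65-fold (adjusted p = 1.4e-05). AGT, angiotensinogen, had 690 to 5877 at 28 dpn and 2759 to 27244 at 1 dpn and fell 4.42-fold (adjusted p = 0.0029), though it missed the threshold without the low-ratio arrays (adjusted p = 0.069).

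Ribosomal protein genes fell on a modest scale, with 14 of 60 lower (23.3%), 46 that did not pass and a median of -0.25. Without the low-ratio arrays 9 were lower. The count moved with the scaling and the fit, to 22 after centring and 5 with the 2 ages fitted alone. It was 8 to 20 when single arrays were left out, with 8 to 9 without 28 dpn replicate 3, 4, 5 or 6 or 1 dpn replicate 2 or 5. RPL3, a protein of the large subunit, had 7963, 9550 and 11987 at 28 dpn, against 21518, 25853 and 29406 at 1 dpn, and fell 2.57-fold (adjusted p = 6e-07). RPLP2, of the ribosomal stalk, had 11676 to 17184 at 28 dpn and 17983 to 57069 at 1 dpn and fell 2.33-fold (adjusted p = 0.00074).

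Factors of ribosome assembly and translation were mixed, with 4 of 42 higher, 7 lower and 31 that did not pass, and 6 higher and 5 lower without the low-ratio arrays. PES1, a factor of large-subunit assembly, fell 2.47-fold (128 to 265 at 28 dpn, 290 to 557 at 1 dpn, adjusted p = 7.7e-05). EIF4A2, an RNA helicase of translation initiation, rose 2.64-fold (19950, 22771 and 27183 at 28 dpn, against 5252, 9009 and 13362 at 1 dpn, adjusted p = 3.6e-05). POLR1D, a subunit of RNA polymerases I and III, rose 3.36-fold (4818 to 6581 at 28 dpn, 720 to 3822 at 1 dpn, adjusted p = 0.00047), or 1.79-fold without the low-ratio arrays.

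Proteasome genes had 10 of 33 lower (30.3%), 3 higher and 20 that did not pass (median -0.24), and without the low-ratio arrays 12 were lower and 21 did not pass (median -0.41). PSMD13, a lid subunit of the regulatory particle, had 2465, 2927 and 3667 at 28 dpn, against 5315, 6110 and 7196 at 1 dpn, and fell 2.05-fold (adjusted p = 4.1e-05). PSMA7, a subunit of the core ring, had 17999, 20951 and 23765 at 28 dpn, against 28520, 41914 and 49049 at 1 dpn, and fell 1.93-fold (adjusted p = 8.7e-05). PSMD3, another lid subunit, fell 2.00-fold with samples that overlapped (1289 to 1588 at 28 dpn, 1506 to 4813 at 1 dpn, adjusted p = 0.0019).

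Cell cycle and replication genes were higher at 28 dpn than at 1 dpn in 17 of 45 (37.8%), lower in 2, and did not pass in 26, with a median of 0.78. Without the low-ratio arrays 10 were higher, 1 lower and the median was 0.55, and 1 was lower without 28 dpn replicate 1 or 2 or 1 dpn replicate 2 or 6. CCNB1, the cyclin of entry into mitosis, had 171, 222 and 272 at 28 dpn, against 6.37, 28.9 and 74.1 at 1 dpn, and rose 5.46-fold (adjusted p = 8.9e-06). UBE2C, which tags mitotic cyclins for breakdown, had 311 to 555 at 28 dpn and 23.1 to 392.03 at 1 dpn and rose 5.40-fold (adjusted p = 0.0015). RACGAP1, of the dividing cell's midzone, had 323 to 613 at 28 dpn and 48.4 to 246 at 1 dpn and rose 3.47-fold (adjusted p = 0.00013). CDKN3, a phosphatase that acts on cyclin-dependent kinases, went against them, with 140, 269 and 375 at 28 dpn, against 401, 1416 and 3382 at 1 dpn, down 5.29-fold (adjusted p = 8.7e-05). Which cells divide cannot be read from a whole-tissue sample.

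Of the 43 lists, the interferon-stimulated genes had the largest median change with all arrays. Interferon-stimulated genes were higher in 22 of 30 (73.3%), with 8 that did not pass and a median log2 change of 1.91, and no member had a negative log2 change. The low-ratio arrays carried a large part of the count: without them 10 of 30 were higher, 20 did not pass and the median was 1.10. GBP1, a GTPase against intracellular microbes, had 466, 1073 and 5351 at 28 dpn, against 19.0, 112 and 508 at 1 dpn, and rose 10.4-fold (adjusted p = 0.00013), the ages overlapping through 1 dpn replicate 6. UBD, a ubiquitin-like modifier, had 591, 944 and 2517 at 28 dpn, against 45.1, 152 and 277 at 1 dpn, and rose 6.87-fold (adjusted p = 5.1e-05).

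Other members of the list named here had their highest 1 dpn sample in replicate 6. RSAD2 (viperin, an antiviral enzyme) lay at 196 to 2160 at 28 dpn, against 11.3 to 106 in 5 samples of 1 dpn and 1108 in replicate 6, a value among those of 28 dpn. It rose 9.67-fold with all arrays, 16.0-fold without 1 dpn replicate 6, and missed the threshold without the low-ratio arrays (4.58-fold, adjusted p = 0.095). OAS1, which senses double-stranded RNA, had 448 to 2397 at 28 dpn, against 30.1 to 1149 at 1 dpn with replicate 6 highest. At 1 dpn it lay at 30.1 to 60.45 in the low-ratio arrays and at 272 to 1149 in the other 3. It rose 7.01-fold, or 2.31-fold without the low-ratio arrays (adjusted p = 0.31).

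Antigen presentation genes were higher in 17 of 27 (63.0%), lower in 1, and did not pass in 9 (median 1.30). Without the low-ratio arrays 10 were higher and 17 did not pass, with a median of 0.76. SLA-DRA, a class II chain of the swine leukocyte antigens, had 3868, 5432 and 7322 at 28 dpn, against 168, 503 and 2706 at 1 dpn, and rose 8.32-fold (adjusted p = 3.8e-05, 3.89-fold without the low-ratio arrays). SLA-2, a class I chain, had 9665, 15052 and 22156 at 28 dpn, against 794, 2368 and 8970 at 1 dpn, and rose 6.11-fold (2.55-fold without the low-ratio arrays). The class II genes SLA-DQA1 and SLA-DQB1 rose 6.39-fold and 5.66-fold, and 3.47-fold and 3.06-fold without those arrays. The ages did not overlap for these 4 genes. SLA genes are alike in sequence, so their probe sets may share signal.

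**Figure D4:**
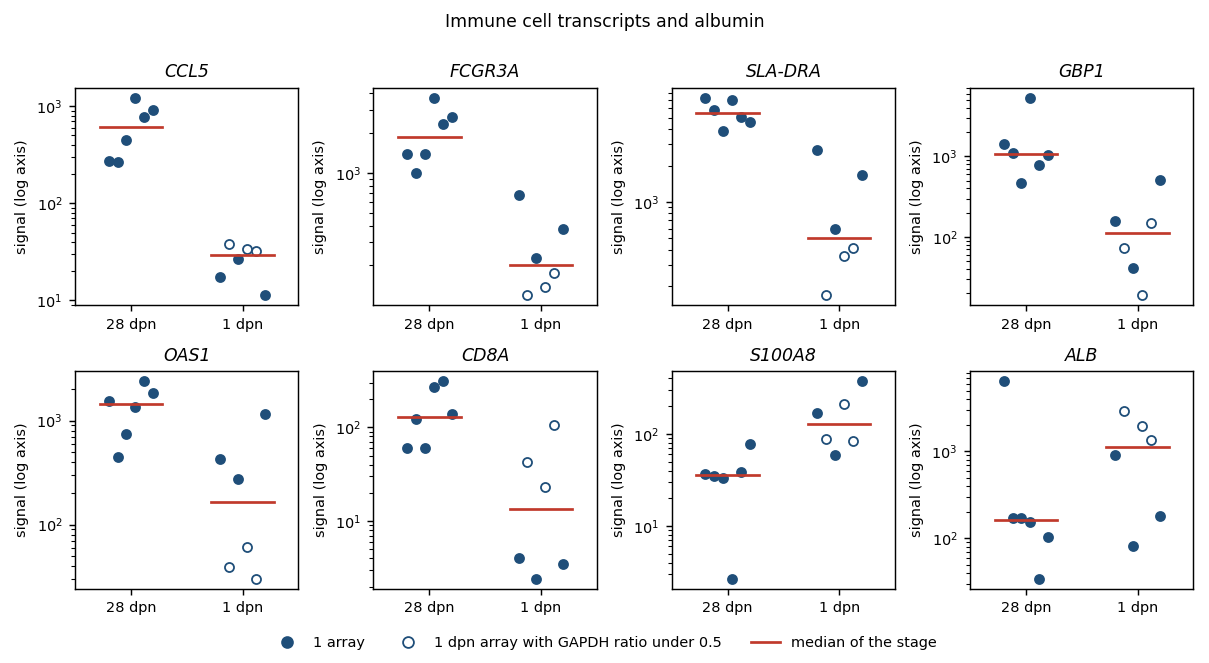
Signals (log axis) of 7 immune transcripts and albumin in each array of 28 dpn (left) and 1 dpn (right), with the median of each age as a red line and low-ratio arrays as open circles. CCL5, FCGR3A and SLA-DRA are higher at 28 dpn without overlap, and at 1 dpn the filled circles of OAS1 lie above its open ones. S100A8 is lower at 28 dpn, and ALB is high in 28 dpn replicate 1 and in 4 samples of 1 dpn.

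Among markers of cell types, macrophage and dendritic cell genes were higher in 12 of 25 (48.0%) and did not pass in 13 (median 0.85), and 8 were higher without the low-ratio arrays. Their summed signal was 12960 to 31210 at 28 dpn, against 4600 to 8454 in the low-ratio arrays and 7594 to 11685 in the others of 1 dpn. FCGR3A, an antibody receptor of macrophages and natural killer cells, had 992, 1864 and 3695 at 28 dpn, against 119, 202 and 684 at 1 dpn, and rose 7.45-fold (adjusted p = 3.1e-06, 4.64-fold without the low-ratio arrays). LAPTM5, of the lysosomes of white blood cells, had 506, 1171 and 1890 at 28 dpn, against 78.4, 165 and 377 at 1 dpn, and rose 5.94-fold (adjusted p = 6e-06). C1QC, a complement chain that macrophages make, had 2871 to 8653 at 28 dpn and 385 to 2689 at 1 dpn and rose 5.27-fold (2.75-fold without the low-ratio arrays).

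T and NK cell markers were higher in 4 of 23 (17.4%), near the share of all genes, with 19 that did not pass and a median of 0.37, and 3 were higher without the low-ratio arrays. CCL5, a chemokine of activated T cells, had 266, 609 and 1223 at 28 dpn, against 11.3, 29.3 and 38.4 at 1 dpn, and rose 13.8-fold (adjusted p = 2.3e-07, 16.8-fold without the low-ratio arrays). GNLY, granulysin of killer cells, had 472 to 3050 at 28 dpn and 61.7 to 277 at 1 dpn and rose 6.87-fold (adjusted p = 0.0005). CD8A, the co-receptor of cytotoxic T cells, had 59.5 to 309 at 28 dpn and 2.43 to 106 at 1 dpn and rose 4.22-fold (adjusted p = 0.0077). Its 1 dpn signals were higher in the low-ratio arrays (23.0 to 106) than in the other 3 (2.43 to 4.03), and the fold without the low-ratio arrays was 7.76. The 5 measured markers of B and plasma cells did not pass, nor did any reach an unadjusted p under 0.05.

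Chemokines, cytokines and their receptors were higher in 15 of 48 (31.2%) and did not pass in 33 (median 0.47), and 7 were higher without the low-ratio arrays. CCL2, which draws monocytes, had 475, 600 and 934 at 28 dpn, against 35.8, 140 and 216 at 1 dpn, and rose 4.51-fold (adjusted p = 1.6e-05). CXCL9, an interferon-induced chemokine of T cells, had 148 to 1070 at 28 dpn and 28.5 to 98.7 at 1 dpn and rose 4.56-fold (adjusted p = 0.00051). CCL19, which guides lymphocytes to lymphoid zones, had 386 to 2055 at 28 dpn and 9.35 to 401 at 1 dpn and rose 8.36-fold. In the low-ratio arrays it lay at 9.35 to 18.2, and the rise without them was 2.62-fold.

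Complement and acute phase genes were higher in 7 of 30 (23.3%), lower in 3 and did not pass in 20. This came to 3 higher (10.0%, near the share of all genes) and 2 lower without the low-ratio arrays. C4BPA, which binds complement C4b, had 1183, 3595 and 7038 at 28 dpn, against 21.6, 351 and 619 at 1 dpn, and rose 15.0-fold (adjusted p = 8.1e-05, 14.9-fold without the low-ratio arrays). C4A had 491 to 2078 at 28 dpn and 262 to 844 at 1 dpn and rose 2.77-fold (adjusted p = 0.0016). C3, the hub of the cascade, had 868 to 5048 at 28 dpn, a wide spread, against 771 to 1036 at 1 dpn, and rose 2.75-fold (adjusted p = 0.01). Without the low-ratio arrays it missed the threshold, with a log2 change of 1.43 in place of 1.46 (adjusted p = 0.07).

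Neutrophil markers were lower in 2 of 14, higher in 1 and did not pass in 11 (median -0.53), with 4 lower without 1 dpn replicate 2 or without the low-ratio arrays (where the rise was lost) and 1 lower without 1 dpn replicate 1 or 6 (2 were higher without 1 dpn replicate 1). Summed over these markers, 28 dpn had 1119 to 1748 and 1 dpn 1131 to 8254, so that the ages overlapped. S100A8, a calcium-binding protein abundant in neutrophils, had 2.67, 35.5 and 77.9 at 28 dpn, against 59.6, 128 and 372 at 1 dpn, and fell 3.18-fold (adjusted p = 0.0081).

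Vessel markers leaned higher, with 9 of 25 endothelial genes up (36.0%), 2 down and 14 that did not pass (median 0.36), and 5 up and 1 down without the low-ratio arrays. The summed signal of these markers was 27825 to 36462 at 28 dpn, 39420 to 42532 in the low-ratio arrays and 27520 to 32421 in the others of 1 dpn. TIE1, a receptor of endothelial cells, had 138, 206 and 340 at 28 dpn, against 9.86, 32.3 and 84.2 at 1 dpn, and rose 4.36-fold (adjusted p = 3.1e-05). RAMP2, of the adrenomedullin receptor, had 1860 to 2430 at 28 dpn and 473 to 1589 at 1 dpn and rose 2.42-fold (1.59-fold without the low-ratio arrays). AQP1, the water channel of capillaries and red cells, had 5475, 6644 and 7344 at 28 dpn, against 8304, 13640 and 20440 at 1 dpn, and fell 2.07-fold (adjusted p = 0.00075).

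Fibroblast and matrix genes stood near all genes, with 3 of 45 higher, 6 lower and 36 that did not pass (median 0.04), and 2 higher and 4 lower without the low-ratio arrays (median -0.13). COL15A1, a collagen of basement membranes around fibres and capillaries, had 5632, 6124 and 7783 at 28 dpn, against 966, 3366 and 4347 at 1 dpn, and rose 2.44-fold (adjusted p = 0.002). THBS1, thrombospondin, had 186 to 766 at 28 dpn and 657 to 4424 at 1 dpn and fell 3.71-fold (adjusted p = 0.002). SPARC, a matrix protein of growing connective tissue, did not pass (36246 to 56838 at 28 dpn, 39322 to 58029 at 1 dpn, log2 change -0.21).

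Of 14 erythroid genes 4 rose and 10 did not pass (2 without 28 dpn replicate 6 or 1 dpn replicate 4), BPGM and EPB41 among the 4. BPGM and EPB41 rose without the low-ratio arrays too, and 1 gene then fell. EPB41, protein 4.1 of the membrane skeleton, had 601 to 1010 at 28 dpn and 173 to 537 at 1 dpn and rose 2.33-fold (adjusted p = 0.0012). Summed over the list, 28 dpn had 9199 to 11686 and 1 dpn 5196 to 9042, with no overlap. The sums were apart only through BPGM, whose own gap between the ages was wider (2225 to 3115 against 150 to 693). Of the nerve and neuromuscular junction markers, 1 of 9 rose, the Schwann cell protein S100B (1.71-fold, 467 to 754 at 28 dpn, 300 to 444 at 1 dpn). The other 8 did not pass. Of 12 adipocyte markers 1 rose, GPD1 as above, and 3 did without 1 dpn replicate 1, while of 8 keratinocyte markers 1 fell with all arrays and 2 did without 28 dpn replicate 2. That fall was lost without the low-ratio arrays.

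Transcripts of secreted hepatocyte proteins were, in sum, high in 28 dpn replicate 1 and in the low-ratio arrays of 1 dpn. Of 30 genes of secreted hepatocyte proteins 1 rose, 2 fell and 27 did not pass (median -0.80), and these 3 calls were lost without the low-ratio arrays (median -0.13). Their summed signal was 4693 to 38190 at 28 dpn, the top value in replicate 1, against 19534 to 25470 in the low-ratio arrays and 6496 to 11408 in the other 3 of 1 dpn. ALB was 6400 in 28 dpn replicate 1 and at most 174 in the other 5, and at 1 dpn it was 1338 to 2909 in the low-ratio arrays and 81.8 to 919 in the others. AHSG, fetuin A, ran alike, with 2493 in 28 dpn replicate 1 and at most 253 in the other 5, and 3362 to 4945 in the low-ratio arrays.

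With all arrays ALB (log2 change -1.53, adjusted p = 0.3) and AHSG (-2.29, adjusted p = 0.073) did not pass. Without 28 dpn replicate 1 both did (adjusted p = 0.03 and 0.014) and 12 of the 30 genes were lower, and without 1 dpn replicate 3 AHSG passed (adjusted p = 0.011) and 6 of the 30 were lower. AHSG also passed without 1 dpn replicate 6 (adjusted p = 0.043). At most 1 of the 30 was lower without 28 dpn replicate 3 or 6 or 1 dpn replicate 2, 4 or 5. The part of these markers in other differences between the ages was not tested.

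Of 28 genes of hepatocyte metabolism 2 rose and 26 did not pass, and both rose without the low-ratio arrays, while 3 fell without 28 dpn replicate 1. CYP27A1, a sterol hydroxylase found in many tissues, had 622 to 1072 at 28 dpn and 168 to 432 at 1 dpn and rose 2.97-fold (adjusted p = 5.8e-05). CYP3A29, a drug-metabolising enzyme, had 75.8 to 218 in 5 samples of 28 dpn and 1769 in replicate 5, against 3.93 to 5.35 in 5 samples of 1 dpn and 66.1 in replicate 2. It rose 8.67-fold (adjusted p = 0.00023), or 5.72-fold without 28 dpn replicate 5.

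Antioxidant and metal-binding genes had 7 of 35 higher, 5 lower and 23 that did not pass (median 0.10). The balance turned without the low-ratio arrays, with 5 higher, 8 lower and a median of -0.24, and centring gave 4 higher and 7 lower. Single arrays mattered as well, with 4 higher without 28 dpn replicate 6 or 1 dpn replicate 2 and 3 lower without 1 dpn replicate 6. NQO1, a quinone reductase, had 1501 to 5243 at 28 dpn and 362 to 1543 at 1 dpn and rose 2.94-fold (adjusted p = 0.001). PRDX3, the mitochondrial peroxiredoxin, had 16375 to 20275 at 28 dpn and 4180 to 13541 at 1 dpn and rose 2.49-fold (1.60-fold without the low-ratio arrays). GSTM3, a glutathione transferase, had 140 to 449 at 28 dpn and 325 to 1234 at 1 dpn and fell 2.30-fold (adjusted p = 0.0071).

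A few genes among the largest changes belong to no list above. MSS51, a factor of striated muscle mitochondria, had 1810, 3479 and 7331 at 28 dpn, against 135, 179 and 251 at 1 dpn, and rose 17.7-fold (adjusted p = 1.8e-10). ALDH2, the mitochondrial aldehyde dehydrogenase, had 8455, 10332 and 15130 at 28 dpn, against 489, 956 and 2335 at 1 dpn, and rose 10.3-fold (adjusted p = 2.9e-08). RNF207, a ring finger protein of heart and muscle, had 3.91, 10.0 and 17.1 at 28 dpn, against 91.2, 226 and 645 at 1 dpn, and fell 9.79-fold (adjusted p = 1.2e-06). MYO5B, a myosin of vesicle transport, had 71.5, 127 and 156 at 28 dpn, against 719, 1262 and 1575 at 1 dpn, and fell 8.89-fold (adjusted p = 5e-06). SLC25A33, a pyrimidine carrier of mitochondria, had 348, 475 and 754 at 28 dpn, against 1337, 2095 and 9094 at 1 dpn, and fell 5.09-fold (adjusted p = 3.4e-05). The rule that allowed these 5 genes required that the ages do not overlap, so their lack of overlap is no separate result.

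Set among all 4 ages, the genes that differed between 28 and 1 dpn took several courses, given here as means ± SD (n = 5 at 94 dpc and 6 at each other age) with no test beyond that of 28 against 1 dpn. MYH2 averaged 7636 ± 5411 at 94 dpc and 6684 ± 2926 at 1 dpn, then 76921 ± 17130 at 28 dpn and, last, 96051 ± 11642 at 188 dpn. ACADVL averaged 2908 ± 715, 20684 ± 5484, 6758 ± 913 and 4544 ± 1175 in the same order of ages, so that 1 dpn was its highest age. MDK averaged 3331 ± 502, 74.5 ± 90.4, 936 ± 322 and 174 ± 110, so that 1 dpn had its lowest mean. In the 1 dpn arrays other than the low-ratio ones it had 56.6 to 238 (mean 138), within the 39.3 to 345 of 188 dpn.

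In that order of ages CCNB1 averaged 447 ± 83.1, 33.2 ± 28.2, 219 ± 40.0 and 47.4 ± 17.1, high at 94 dpc and 28 dpn and low at the other two. CCL2 had the same shape, with 617 ± 125, 138 ± 66.1, 625 ± 166 and 140 ± 48.0. PEG10 was lower at each later age, with 19011 ± 3246, 4231 ± 2063, 445 ± 182 and 126 ± 41.2. A low value at 1 dpn enters both the difference from 94 dpc and the difference from 28 dpn, and the 2 are not independent.

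**Figure D5:**
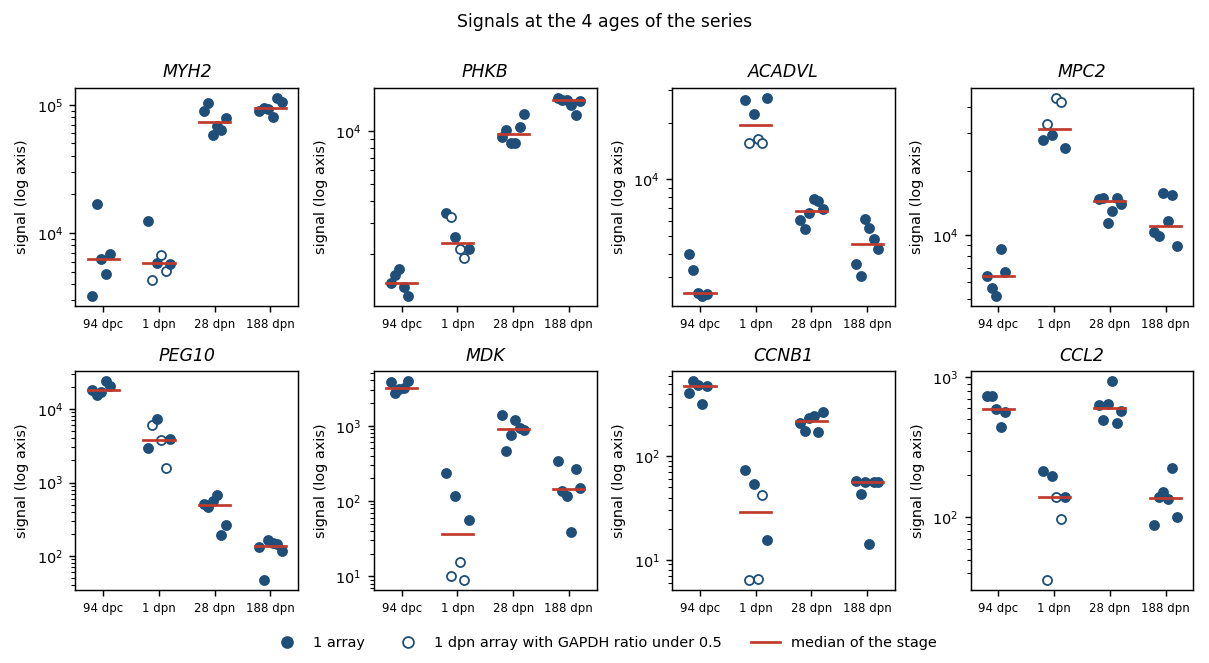
Signals (log axis) of 8 transcripts in every array of the series, the 4 ages in order from left to right, with the median of each age as a red line and the 3 low-ratio arrays of 1 dpn as open circles. MYH2 and PHKB are high at 28 and 188 dpn, ACADVL and MPC2 are highest at 1 dpn, PEG10 steps down with age, and MDK, CCNB1 and CCL2 are low at 1 dpn.

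The 112 genes called and named here had 58 other probe sets in 32 genes. Of these, 18 were called in the same direction, 28 had the same sign without passing, 9 had the opposite sign without passing, and 3 were called in the opposite direction, those of IGF2 (2) and PEG10 (1). Genes with an opposite sign that did not pass included DNAJB6 (log2 change 0.58), HSPB6 (0.27), PNPLA2 (0.33) and THBS1 (0.64).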

How the data were processed

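Each array of a porcine Affymetrix platform has 1 deposited intensity per probe set, on a linear scale. The submitters' processing notes list GCOS 1.1.1, and how signals were summarised and background-corrected is not given in the sources used here. No detection calls were used, so no probe set is called absent. The 124 control probe sets were left out of 24123, and values were taken as log2(signal + 16) with no further normalization. limma 3.58.1 in R 4.3.3 (lmFit, eBayes) fitted 1 mean per age to all 23 arrays, with two-sided tests and Benjamini-Hochberg adjustment over 23999 probe sets. The unadjusted p was under 0.05 for 6981. Platform annotation gave 10069 probe sets 1 symbol, 198 several and 13732 none. Each of the 6765 genes was taken from its probe set of highest mean, and members of the 43 gene lists were matched by exact symbol.

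The rule for named genes allowed the 15 largest rises and 15 largest falls without overlap whose mean at the higher age lay above the overall median level (log2 value 7.15), up to 4 called and 2 uncalled members of each list, members of lists of at most 12 measured genes, and a fixed set. The genes printed were picked from those it allowed after their values were seen. The members, the lists and the ratio limit of 0.5 were chosen with earlier results of these data known. Replicate numbers follow accession order. In simulated data of 23999 probe sets for this comparison, 40 of 100 planted log2 changes of 1 and 87 of 100 of 2 were recovered, with 8 false calls. The simulated samples were independent, with 1 spread per probe set at all ages. In the data the median SD on the log2 scale was 0.593 at 1 dpn and 0.412 at 28 dpn, and some animals shared a dam. These simulated counts may therefore not hold for the data. Identical columns were found in 0 pairs of arrays, and every value column had its sample (0 without one). Tables and figures used Python 3.11.15, pandas 2.3.3 and matplotlib 3.10.9.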

Additional observations from a re-analysis of the deposited data

Results flagged for a closer look

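In 11 of 248 sets of 6 samples (124 named genes at 2 ages) 1 sample stood apart from the other 5 of its age, by a gap to the nearest sample (as a share of the whole range on the log2 scale) above Dixon's critical value for 6 samples, which chance exceeds in about 1 of 20 groups. The count of 11 in 248 is no more than that rate gives, so none of these samples is taken as a proven outlier. At 28 dpn, HIBCH was low in replicate 5 (238 against the next, 350, a share of 0.736), GNAS in replicate 6 (16.4 against 49.0, 0.786) and NR3C1 in replicate 2 (122 against 268, 0.688). ALB was high in 28 dpn replicate 1 (6400 against 174, 0.727), CYP3A29 in 28 dpn replicate 5 (1769 against 218, 0.684) and COL15A1 in 28 dpn replicate 3 (7783 against 6328, 0.640).

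At 1 dpn, PLN was low in replicate 4 (384 against 705, 0.789), one of the low-ratio arrays, and HSPB7 in replicate 1 (3067 against 6861, 0.676). GPI (23024 against 9529, 0.679) and PGM1 (33922 against 11257, 0.655) were high in 1 dpn replicate 1. CYP3A29 was high in 1 dpn replicate 2 (66.1 against 5.35, 0.951), also a low-ratio array.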

How the results depend on the processing

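With 28 and 1 dpn fitted alone, 1487 probe sets were higher and 966 lower, and by gene 563 and 396. With the GAPDH ratio as a covariate 1112 probe sets were lower. Leaving out 1 array at a time gave 2032 to 2739 probe sets higher and 1344 to 1980 lower, and 752 to 1031 genes higher and 568 to 821 lower. The other settings (quantile normalization, centring, no dim probe sets, pseudocounts of 1 and 64, trended and robust eBayes, array weights, no low-ratio arrays, and for genes the mean of all probe sets) kept the counts within 1.5 times. Over all probe sets the median change was 0.028 on the log2 scale with no scaling, -0.022 with quantile normalization and -0.049 with centring. Of the 112 named genes that were called, 112 kept the call under quantile normalization and under centring, 111 with array weights, 108 with the 2 ages alone, 105 by the mean of all probe sets, 98 without the low-ratio arrays and 95 with the GAPDH covariate. None of these changed sign under these settings. With the 2 ages alone, list counts fell as well: 6 proteasome and 9 chaperone genes were lower, 3 antioxidant and 5 amino acid breakdown genes higher, and 3 slow fibre and 1 fast fibre genes higher. GAPDH, which was not called, was higher by the mean of its probe sets (log2 change 0.7762, adjusted p = 0.0024). No paired analysis was possible because the replicate numbers follow accession order and the labels tie no sample of one age to a sample of the other. Dim transcripts limit the precision: the added 16 draws their folds toward 1.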
